A study of Caenorhabditis elegans with 3 samples.

Results

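The genes described here encode the proteins of the mitochondrial ribosome and the machinery that imports proteins into mitochondria, measured in dissected germlines of Caenorhabditis elegans. They were chosen by name: every protein-coding gene whose WormBase symbol starts with mrpl-, mrps-, tomm-, timm- or tin-. The annotation holds 84 such symbols, and 82 of them could be read from the 45836 gene entries of the deposited table: 41 of the large ribosomal subunit (mrpl-), 29 of the small subunit (mrps-) and 12 of protein import (5 tomm-, 3 timm- and 4 tin-). mrpl-42 was not analysed here, and tin-9.2 shares its sequence name with the exosome gene exos-4.1, so that entry was not counted. All 82 passed the filter on low values and were among the 11345 genes tested.

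The worms were of the wild-type strain N2. Feeding RNA interference (RNAi) was started in L1 larvae at 24 °C, and the germlines of their young adult F1 hermaphrodite progeny were cut off at the gonad bend. The csr-1 RNAi group was fed the csr-1 clone of the Ahringer library; csr-1 encodes a germline Argonaute, a protein that carries small RNAs. The P granule RNAi group was fed clones for which the labels cite a reference, and other knowledge of the work gives its targets as the helicase genes glh-1 and glh-4 and the scaffold genes pgl-1 and pgl-3, all components of germ granules at the nuclear envelope. The empty vector group, the control, was fed HT115 bacteria with plasmid L4440. RNAi lowers a transcript without removing the gene, and all 3 groups ate bacteria made for feeding RNAi. Each group has 4 libraries, named orig, 1, 2 and 3, each pooled from 400 to 500 germlines. The series calls them biological replicates, while the labels describe 1 sample per group and do not say what orig means.

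Mitochondria carry their own small genome and a ribosome of bacterial ancestry that translates it, but the ribosome's proteins are encoded in the nucleus, made in the cytosol and imported. Proteins cross the outer membrane through the TOM complex, are passed through the intermembrane space by small TIM chaperones, and enter the inner membrane or the matrix through the TIM23 complex, whose core is formed by the proteins TIM23 and TIM17. These roles were worked out mostly in yeast and mammals. The worm germline is rich in mitochondria, which oocytes pass on to the embryo.

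The 12 libraries held 18.4 to 31.9 M reads (megareads) in genes. All 8 germline markers were above 0 in every library, and the RNAi targets csr-1, pgl-1, pgl-3 and glh-4 were lower in the group meant to lack them, with no overlap with the control libraries. The target glh-1 was not called under P granule RNAi. Targets also moved in the other group. csr-1 averaged 15509 ± 1075 normalised reads under P granule RNAi and 23553 ± 1583 in the controls, without overlap, though it was not called. Under csr-1 RNAi glh-1 and glh-4 rose, at log2 fold changes of 1.38 and 1.22 (limma adjusted p = 0.000326 and 0.000556). Summed levels of 8 sperm markers ranged from 272 to 10734 normalised reads under csr-1 RNAi, 1196 to 5961 under P granule RNAi and 363 to 1312 in the controls. The 7 intestine markers summed to 7748 to 41398 under csr-1 RNAi, 3498 to 40208 under P granule RNAi and 8318 to 48699 in the controls. Of 6 muscle markers 5 were above 0 in every library, all but myo-2. Of 6 hypodermis markers 3 were, all but dpy-7, col-12 and bli-1. All 6 neuron markers and the 5 matched markers of the gonadal sheath and spermatheca were also above 0 in every library. What part these other cells have in the results was not tested. In bulk RNA, fewer cells of a type and less RNA per cell cannot be told apart. A log2 fold change is on the scale of log2(value + 1), and log2 difference is used for the same quantity. Values are normalised reads: the reads of a gene over its library's size factor. A gene is said to be called, to have risen or to have fallen where limma's adjusted p was under 0.05 over all genes tested.

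All 82 genes were expressed in the control germlines, with means of 438 normalised reads or more. Levels between genes are compared per kilobase of exon. The highest in the controls was mrpl-44, at 5104 ± 647 normalised reads per kilobase (SD, n = 4), but its locus overlaps mccc-2, which has no entry of its own, so its level is uncertain. tomm-40, the channel of the outer membrane, followed at 4559 ± 435, and timm-17B.1, a TIM17 of the inner membrane, at 4311 ± 791. The small TIM chaperones tin-13 and tin-10 had 3841 ± 922 and 3809 ± 461 per kilobase, and the SD ranges of these 4 import genes overlapped. At the other end, mrps-31 had 442 ± 73.5 and mrpl-45 535 ± 93.6 per kilobase. In reads per gene, the lowest and highest large subunit members were mrpl-55, with 438 ± 45.0, and mrpl-44, with 9008 ± 1142. For the small subunit they were mrps-21, with 511 ± 114, and mrps-18C, with 3677 ± 274. The library kit keeps no strand information, and 5 members (mrpl-1, mrpl-34, mrps-16, mrps-18A and mrps-35) overlap another coding gene over at least 10% of their exons, so their levels are less certain.

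Among these genes the sharpest change was in a single import gene. timm-17B.2, one of a pair of worm genes for TIM17, a core subunit of the inner membrane translocase, had 308, 325, 355 and 537 normalised reads in the csr-1 RNAi libraries orig, 1, 2 and 3. It had 2487, 2136, 1759 and 3107 in the P granule RNAi libraries and 726, 767, 928 and 579 in the controls. The 3 groups did not overlap: every csr-1 RNAi library lay below every control, and every P granule RNAi library above it. The means were 381 ± 106 under csr-1 RNAi, 2372 ± 573 under P granule RNAi and 749.9 ± 143 in the controls (SD, n = 4 each). timm-17B.2 fell under csr-1 RNAi, with a log2 difference of −0.99 (SE 0.22, limma adjusted p = 0.0114), and rose under P granule RNAi, with 1.65 (SE 0.22, limma adjusted p = 0.0114). The direct comparison of csr-1 RNAi with P granule RNAi gave −2.64 (SE 0.22, limma adjusted p = 4.23e-05).

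The other gene of the pair, timm-17B.1, was the more abundant and was not called. It had 3652, 4593, 5184 and 7199 normalised reads under csr-1 RNAi, 4154, 6530.4, 4926 and 5035 under P granule RNAi and 4156, 4191, 4431 and 2846 in the controls. These groups overlapped, and its log2 fold changes were 0.38 (SE 0.21, limma adjusted p = 0.272) and 0.40 (SE 0.21, limma adjusted p = 0.384). Of the reads of both genes together, timm-17B.2 took 6.94 ± 0.61% under csr-1 RNAi, 31.6 ± 7.15% under P granule RNAi and 16.1 ± 1.16% in the controls (SD, n = 4). No library of one group reached the range of another in this share: it was 6.41% to 7.78%, 24.6% to 38.2% and 14.9% to 17.3%. How alike the 2 sequences are was not measured here, and reads with no unique alignment, 2.04% to 2.76% of a library, were not assigned to genes.

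**Figure D1:**
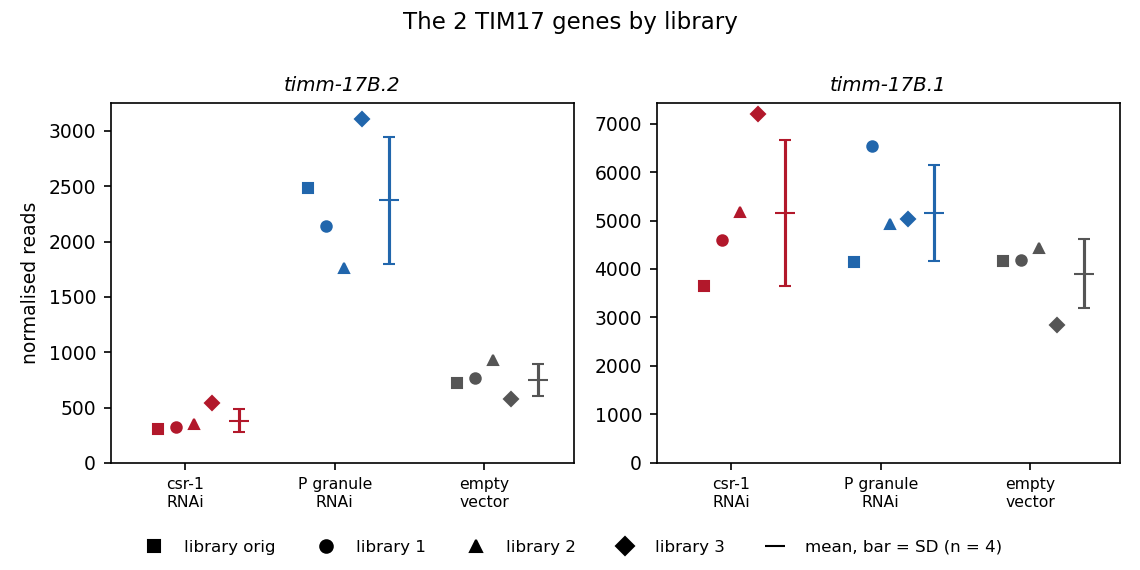
Normalised reads of timm-17B.2 (left) and timm-17B.1 (right) in each library of csr-1 RNAi, P granule RNAi and the empty vector; symbols mark the library, and the dash with its bar is the mean and SD of 4. timm-17B.2 lies below the controls under csr-1 RNAi (mean 381) and above them under P granule RNAi (mean 2372), while the timm-17B.1 groups overlap.

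The support for these calls differed between the comparisons. That of csr-1 RNAi with P granule RNAi passed under all 23 alternative settings. The csr-1 RNAi call against the controls was lost in 1, without the 3 orig libraries (limma adjusted p = 0.0519). The P granule RNAi call was lost in 7: adjusted p was 0.163 without the 3 orig libraries, 0.0604 with a replicate block, and 0.0529 to 0.063 without control library orig, 1 or 3 or P granule library orig or 3. In the authors' deposited table, timm-17B.2 had a fold change of 3.16 under P granule RNAi with p = 0.00149 and an adjusted p = 0.107. Their deposited table for csr-1 RNAi gives a fold change of 0.509 with an adjusted p = 0.414.

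Setting csr-1 RNAi against the control asks which of these transcripts change when the Argonaute is lowered. In all 9 of the 82 members were called, 8 higher and 1 lower, against 14.8% of all genes tested. The higher ones were all ribosomal, 4 of 41 large subunit members and 4 of 29 small subunit members, against 6.98% of all genes called higher. The lower one was timm-17B.2, against 7.80% of all genes called lower. In this fit the share of members called was below that of all genes, but it lay above it in 3 of 23 alternatives: 24.4% of members against 18.9% of genes without csr-1 library orig, 15.9% against 15.1% without the 3 orig libraries, and 8.54% against 7.95% without the low-value filter. The median log2 fold change was 0.22 over the members and 0.02 over all genes, and 63 of 82 members lay above 0, against 51.4% of all genes. By edgeR 9 members were called and by DESeq2 13, against 14.0% and 21.7% of all genes. No member in the authors' deposited tables had an adjusted p under 0.05. Of all genes in those deposited tables, 4.23% were called higher and 0.931% lower under csr-1 RNAi, and 0.477% higher and 0.0805% lower under P granule RNAi.

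**Figure D2:**
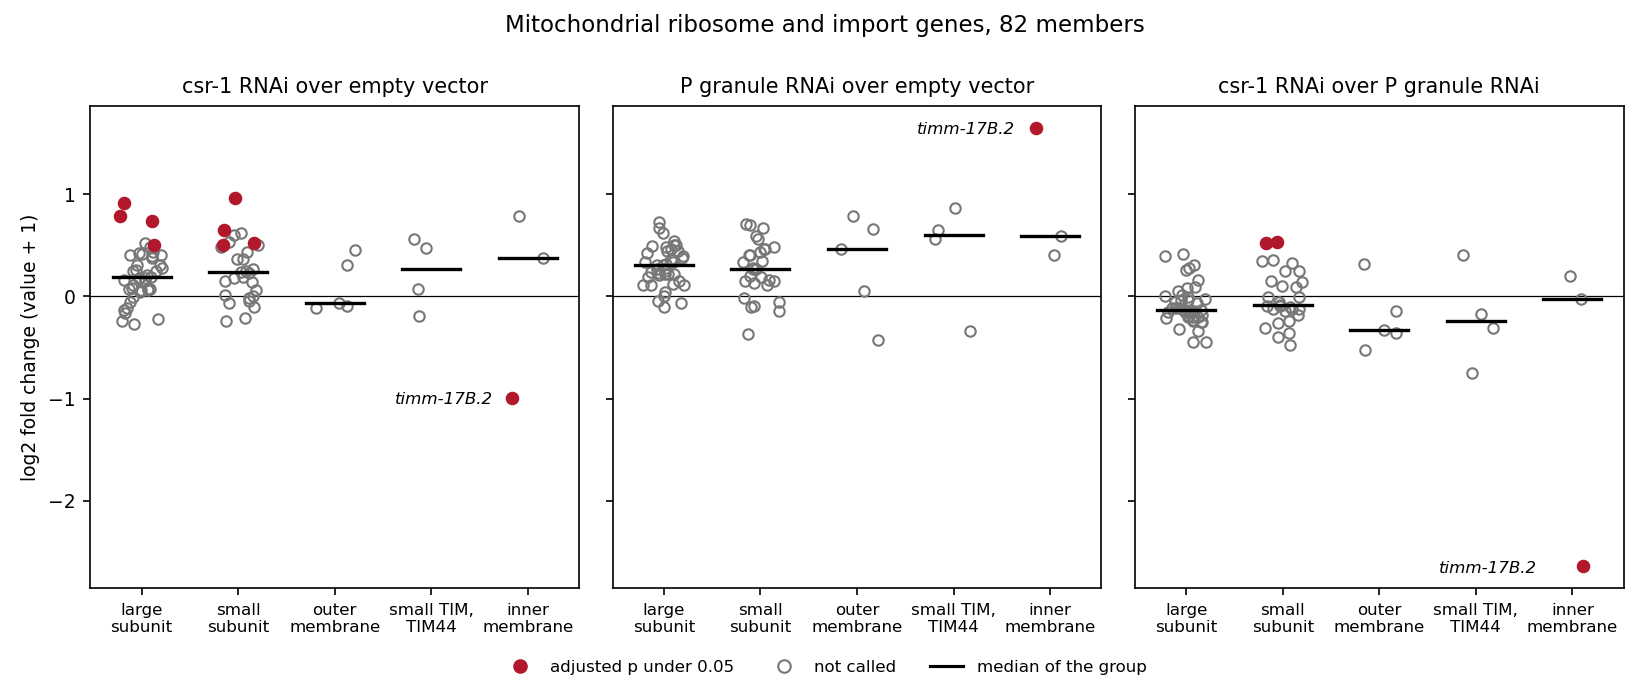
Log2 fold change of each of the 82 members, by role, for csr-1 RNAi over the empty vector, P granule RNAi over the empty vector and csr-1 RNAi over P granule RNAi; filled points were called, open points were not, and the line is the median of the role. Members called number 9, 1 and 3 from left to right, and timm-17B.2 stands at −0.99, 1.65 and −2.64.

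Among the small subunit genes, mrps-14 had the largest rise under csr-1 RNAi. It encodes a protein of the head of the small subunit and had 2999, 3853, 3780.1 and 4788 normalised reads under csr-1 RNAi, 2230.2, 2891, 2778 and 2663 under P granule RNAi and 1956, 2075, 2015 and 1769.6 in the controls. All csr-1 RNAi libraries lay above all the others, and all P granule RNAi libraries above the controls. Its log2 difference was 0.96 (SE 0.14, limma adjusted p = 0.00131) for csr-1 RNAi and 0.43 (SE 0.14, limma adjusted p = 0.315) for P granule RNAi, the second not called.

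mrps-22, a small subunit protein found in animals, had 3407, 3951, 3611 and 3869 normalised reads under csr-1 RNAi, 2513, 2868, 3222 and 2991 under P granule RNAi and 2305, 2799, 2512 and 2744 in the controls. The csr-1 RNAi libraries again lay above all the rest, and the log2 difference was 0.52 (SE 0.11, limma adjusted p = 0.00908). Its neighbour on chromosome II, dap-3, encodes another small subunit protein under a symbol the naming rule does not reach, and was chosen here for its place beside mrps-22. dap-3 had 3176, 3409, 3051 and 3608 normalised reads under csr-1 RNAi, 2464, 2825, 3007 and 2599.5 under P granule RNAi and 2261, 2472, 2450.3 and 2885 in the controls. All its csr-1 RNAi libraries lay above the rest, and it rose by 0.40 on the log2 scale (limma adjusted p = 0.0327).

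mrps-18C, a small subunit gene by its symbol, had 5033, 5486, 4873 and 5399 normalised reads under csr-1 RNAi, 3035, 4175, 3725 and 3657 under P granule RNAi and 3304, 3759, 3958 and 3688 in the controls. Its csr-1 RNAi libraries stood above both other groups, which overlapped. The log2 difference was 0.50 (SE 0.11, limma adjusted p = 0.0126). A separate member with a like symbol, mrps-18.C, was not called under csr-1 RNAi, at 0.27 (SE 0.24, limma adjusted p = 0.501). mrps-6, a protein of the platform of the small subunit, had 1636, 1842, 1827 and 2835 normalised reads under csr-1 RNAi, 1467, 1914, 1756 and 1593 under P granule RNAi and 1296, 1286, 1236 and 1258 in the controls. Both RNAi groups lay above the controls, with csr-1 library 3 the highest, and only the csr-1 RNAi difference was called, at 0.65 (SE 0.16, limma adjusted p = 0.0186).

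Of the large subunit, mrpl-11, a protein of the base of the ribosomal stalk, had 2865, 3119, 3238 and 3670.4 normalised reads under csr-1 RNAi, 2436, 2209, 2706 and 2469 under P granule RNAi and 2399, 2129, 1942 and 2626 in the controls. Its csr-1 RNAi libraries lay above all the others, with a log2 difference of 0.51 (SE 0.12, limma adjusted p = 0.0181). mrpl-35, a small protein of the large subunit, had 675, 980.2, 1030.0 and 1577 normalised reads under csr-1 RNAi, 566, 995, 874 and 1005 under P granule RNAi and 564, 640.5, 594 and 567 in the controls. Its csr-1 RNAi libraries lay above the controls but within reach of the P granule RNAi libraries, and the log2 difference was 0.78 (SE 0.24, limma adjusted p = 0.0486).

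The remaining called members, mrpl-13 and mrpl-23, overlapped the controls and are named after their values were seen. mrpl-13 had 1607, 2310.3, 2447 and 3778 normalised reads under csr-1 RNAi, 1253, 1891, 2043 and 2269 under P granule RNAi and 1142, 1260.0, 1169 and 1644 in the controls. Control library 3 was above csr-1 library orig, and the log2 difference was 0.91 (SE 0.25, limma adjusted p = 0.0298). mrpl-23, whose bacterial relative sits at the exit of the ribosomal tunnel, had 1416, 1993, 2109 and 3064 normalised reads under csr-1 RNAi, 1346, 1719, 1969.9 and 1976 under P granule RNAi and 1142, 1086, 1133 and 1669.8 in the controls. Control library 3 again lay above csr-1 library orig, and the log2 difference was 0.74 (SE 0.23, limma adjusted p = 0.0469).

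**Figure D3:**
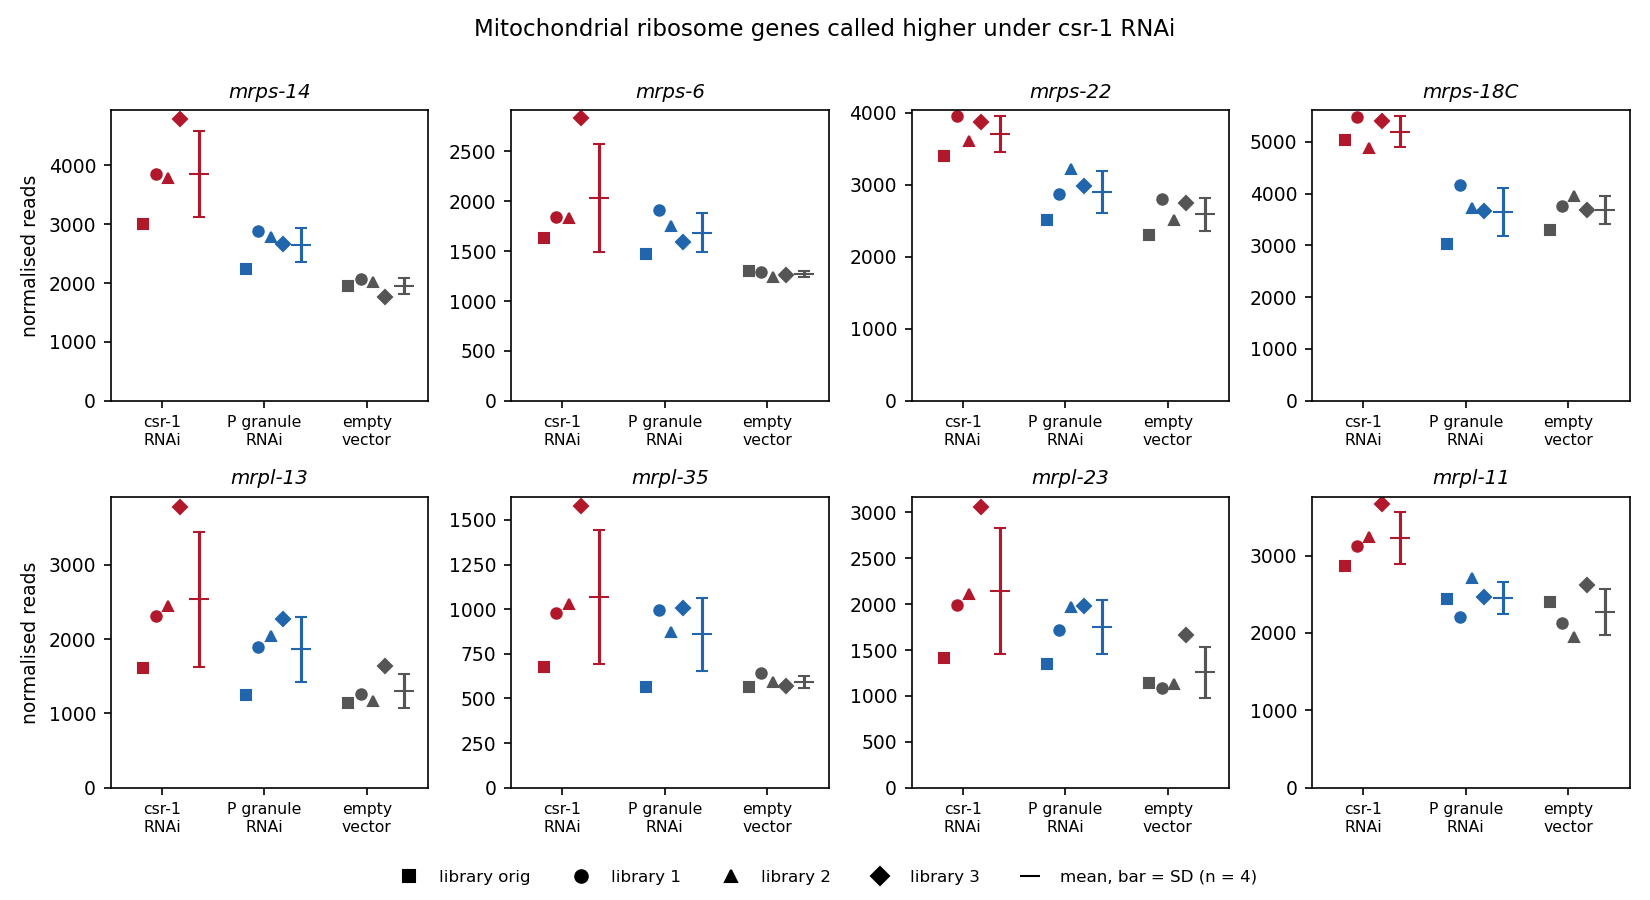
Normalised reads of the 8 mitochondrial ribosome genes called higher under csr-1 RNAi, in each library of csr-1 RNAi, P granule RNAi and the empty vector, with the mean and SD of 4. csr-1 library 3 (diamond) is the highest of its group except for mrps-22 and mrps-18C, where library 1 is higher, and for mrpl-13 and mrpl-23 control library 3 lies above csr-1 library orig.

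The calls for mrps-14 and mrps-22 passed under all 23 alternatives and those for mrps-18C and mrps-6 under 22, while mrpl-11 passed under 19, mrpl-13 under 17, and mrpl-35 and mrpl-23 under 12. The count of members called was 4 without control library 2, where 8.23% of all genes were called. It was 5 without control library 1 (9.46% of all genes) or csr-1 library 2 (9.18%), and 20 without csr-1 library orig (18.9%). In all, 7 members had all csr-1 RNAi libraries above all controls, the 6 non-overlapping ones above and mrps-9, and 1 had them below; over all genes 9.97% lay above and 11.7% below. Over the 70 ribosomal members the log2 fold changes ran from −0.27 to 0.96. mrps-9, named for its lack of overlap after its values were seen, was not called, at a log2 difference of 0.19 (SE 0.10, limma adjusted p = 0.26).

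The csr-1 RNAi libraries did not move together. The median log2 difference of the 82 members from the control mean was −0.20 in csr-1 library orig, 0.18 in library 1, 0.19 in library 2 and 0.72 in library 3. It was 0.03, 0.52, 0.38 and 0.37 in the P granule RNAi libraries, and between −0.05 and 0.08 in the controls. csr-1 library 3 was the highest of its group for 73 members and library orig the lowest for 74. Without library 3 the median for csr-1 RNAi over the control was 0.03 and 6 members were called, against 14.1% of all genes. With both library orig and library 3 left out, an alternative added after seeing the data, the median was 0.19. In that fit 7 members were called, 6 of them higher, against 9.26% of all genes.

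Within a group, the deviations of single libraries were correlated with transcript length, in both directions. Across the 82 members, the deviation of csr-1 library 3 from its group mean had a correlation of −0.76 with the log2 of exon length, and that of library orig one of 0.68. Across all genes with a length the values were −0.45 and 0.39; these are descriptions across genes of 1 library, which share its RNA and depth. Across the 82 members, the correlation was 0.33 and 0.45 in csr-1 libraries 1 and 2. In P granule libraries orig, 1, 2 and 3 it was 0.31, −0.28, 0.48 and −0.32. In control libraries orig, 1, 2 and 3 it was −0.56, 0.34, 0.275 and −0.03. The 41 shorter members had a median log2 fold change of 0.30 for csr-1 RNAi and the 41 longer ones 0.11. For P granule RNAi the medians were 0.44 and 0.15. csr-1 library 3 also held the largest sum of sperm markers of the 12 libraries, 10734, and csr-1 library orig the smallest, 272. In csr-1 libraries 1 and 2, whose member medians were alike, the sums were 979 and 4674.5. In P granule libraries orig, 1, 2 and 3 they were 3280, 1196, 5961.5 and 2361.8, and library 1 had the highest member median of that group. The target csr-1 itself had 6025, 3827, 3045 and 2445 normalised reads in csr-1 libraries orig, 1, 2 and 3. The part of length, RNA quality, sperm RNA or the level of csr-1 left in the members' changes was not tested.

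**Figure D4:**
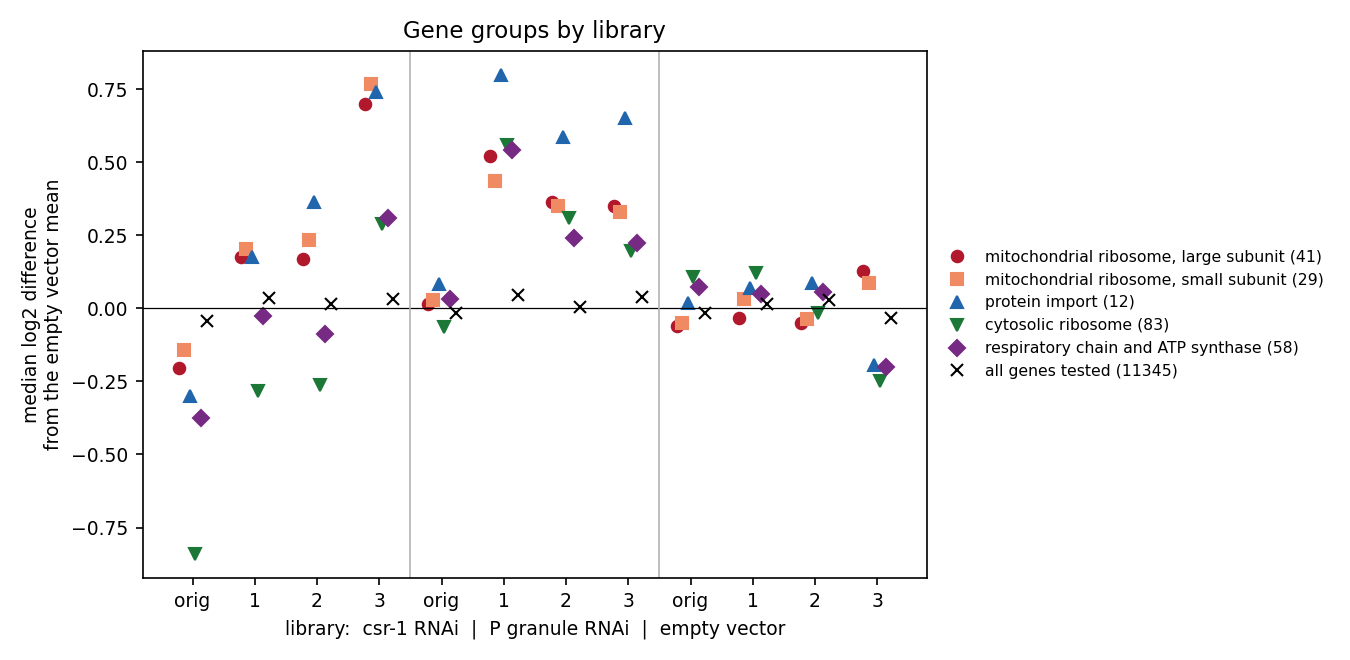
Median log2 difference of each gene group from the mean of the empty vector libraries, in every library, from csr-1 RNAi on the left to the empty vector on the right; the numbers of genes are in the legend. Both subunits of the mitochondrial ribosome lie highest in csr-1 library 3, at 0.70 and 0.77, and the import genes in P granule library 1, at 0.80; all 3 lie below 0 in csr-1 library orig, while all genes tested stay within 0.05 of 0.

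The comparison of P granule RNAi with the empty vector asks the same of the germ granule components. Only timm-17B.2 was called of the 82 members, against 0.0617% of all genes tested (7 genes). It was 1 of 3 genes called higher, 0.0264% of those tested, and 0.0353% were called lower. edgeR and DESeq2 also called 1 member, against 0.0617% and 0.734% of all genes. Whether called or not, 71 members lay above 0, against 52.4% of all genes, and the median was 0.31 over the members and 0.03 over all genes. By role the medians were 0.30 for the large subunit, 0.27 for the small subunit and 0.57 for protein import, and the 70 ribosomal members ran from −0.36 to 0.73. In 15 members every P granule RNAi library lay above every control and in 2 below, against 5.13% and 7.06% of all genes. At an unadjusted p under 0.05 there were 20 members of 82, and 1560 of 11345 genes.

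This count depended on which libraries set the spread. Leaving csr-1 library 3 out of the shared fit, which removes no P granule or control library, gave 3 members and 200 genes called (1.79% of those tested); leaving out csr-1 libraries orig and 3 gave 9 members and 398 genes (3.63%), all 9 members higher. Fitted on the P granule and control libraries alone, 1 member and 10 genes were called (0.0947% of those tested).

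Among the outer membrane genes, tomm-22, a receptor and organiser of the TOM complex, had 1398, 1993, 2219 and 3972 normalised reads under csr-1 RNAi, 2255, 2769, 3044 and 3252 under P granule RNAi and 1879, 1650.4, 1629 and 1392 in the controls. tomm-7, a small regulatory subunit, had 497, 660.1, 759.8 and 1355 under csr-1 RNAi, 846, 1072, 975 and 1022 under P granule RNAi and 688, 566, 615 and 606 in the controls. For both, the P granule RNAi libraries lay above all controls, while csr-1 library orig lay near or below the lowest control and csr-1 library 3 above every P granule RNAi library. The P granule RNAi log2 fold changes were 0.78 (SE 0.26, limma adjusted p = 0.3) and 0.66 (SE 0.24, limma adjusted p = 0.32), not called by limma.

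tomm-70, a receptor for carrier proteins, ran the other way: it had 3914, 3768, 4533 and 2948 normalised reads under csr-1 RNAi, 3127, 2403, 3709.5 and 2954 under P granule RNAi and 3922, 4249.9, 4248 and 3824 in the controls. All P granule RNAi libraries lay below all controls, at a log2 difference of −0.43 (SE 0.15, limma adjusted p = 0.317) that was not called. mrps-30 was the other member with this pattern, with 2410.2, 2261, 2384 and 2064 normalised reads under P granule RNAi and 2698, 3267, 3148 and 2649.5 in the controls, −0.36 (SE 0.14, limma adjusted p = 0.329); it was picked out by its lack of overlap. The presequence receptor tomm-20 had 1658, 2264, 2177 and 3403 normalised reads under csr-1 RNAi, 2489.9, 4516, 3448 and 3061 under P granule RNAi and 2499, 2649.8, 2586 and 1929 in the controls. The channel tomm-40 had 4221, 5416, 5735 and 7439 under csr-1 RNAi, 5060.1, 7519, 6545 and 5865 under P granule RNAi and 5698, 6449.7, 6509 and 5344 in the controls. Groups overlapped for both of these genes, and neither was called in any comparison.

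The small TIM chaperones guide hydrophobic proteins between the membranes. tin-13 had 1309, 2263, 2357 and 4375 normalised reads under csr-1 RNAi, 2009.6, 3289, 3151 and 3416 under P granule RNAi and 1914, 1714, 1867 and 1064 in the controls. tin-9.1 had 438, 702, 734 and 1238 under csr-1 RNAi, 949, 1480.4, 1200.4 and 1319 under P granule RNAi and 870.2, 808, 754 and 893 in the controls. Their P granule RNAi libraries lay above every control, at log2 fold changes of 0.86 (SE 0.32, limma adjusted p = 0.329) and 0.56 (SE 0.26, limma adjusted p = 0.36), which were not called. tin-10 had 1088, 2390.0, 2399.9 and 3839.8 normalised reads under csr-1 RNAi, 1639, 2777, 2905 and 2942 under P granule RNAi and 1337, 1668, 1598 and 1796 in the controls. Its P granule library orig lay within the controls and the other three above them, and the P granule RNAi difference, 0.65 (SE 0.32, limma adjusted p = 0.371), was not called.

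At the inner membrane, timm-23, the channel partner of TIM17, had 2974, 4582, 4701 and 7688 normalised reads under csr-1 RNAi, 2728, 5793, 4255 and 4229 under P granule RNAi and 2680.4, 3029.7, 3040.2 and 2243 in the controls. The lowest csr-1 RNAi library lay among the controls, and neither difference was called: 0.79 (SE 0.27, limma adjusted p = 0.074) for csr-1 RNAi and 0.59 (SE 0.27, limma adjusted p = 0.36) for P granule RNAi. tin-44, which ties the import motor to the channel, had 3739, 4441, 5236 and 2022 under csr-1 RNAi, 2966, 1809, 3475 and 3060.0 under P granule RNAi and 3198, 3306, 3442 and 3997 in the controls. Unlike most members it was lowest in csr-1 library 3 of its group, and it was not called.

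**Figure D5:**
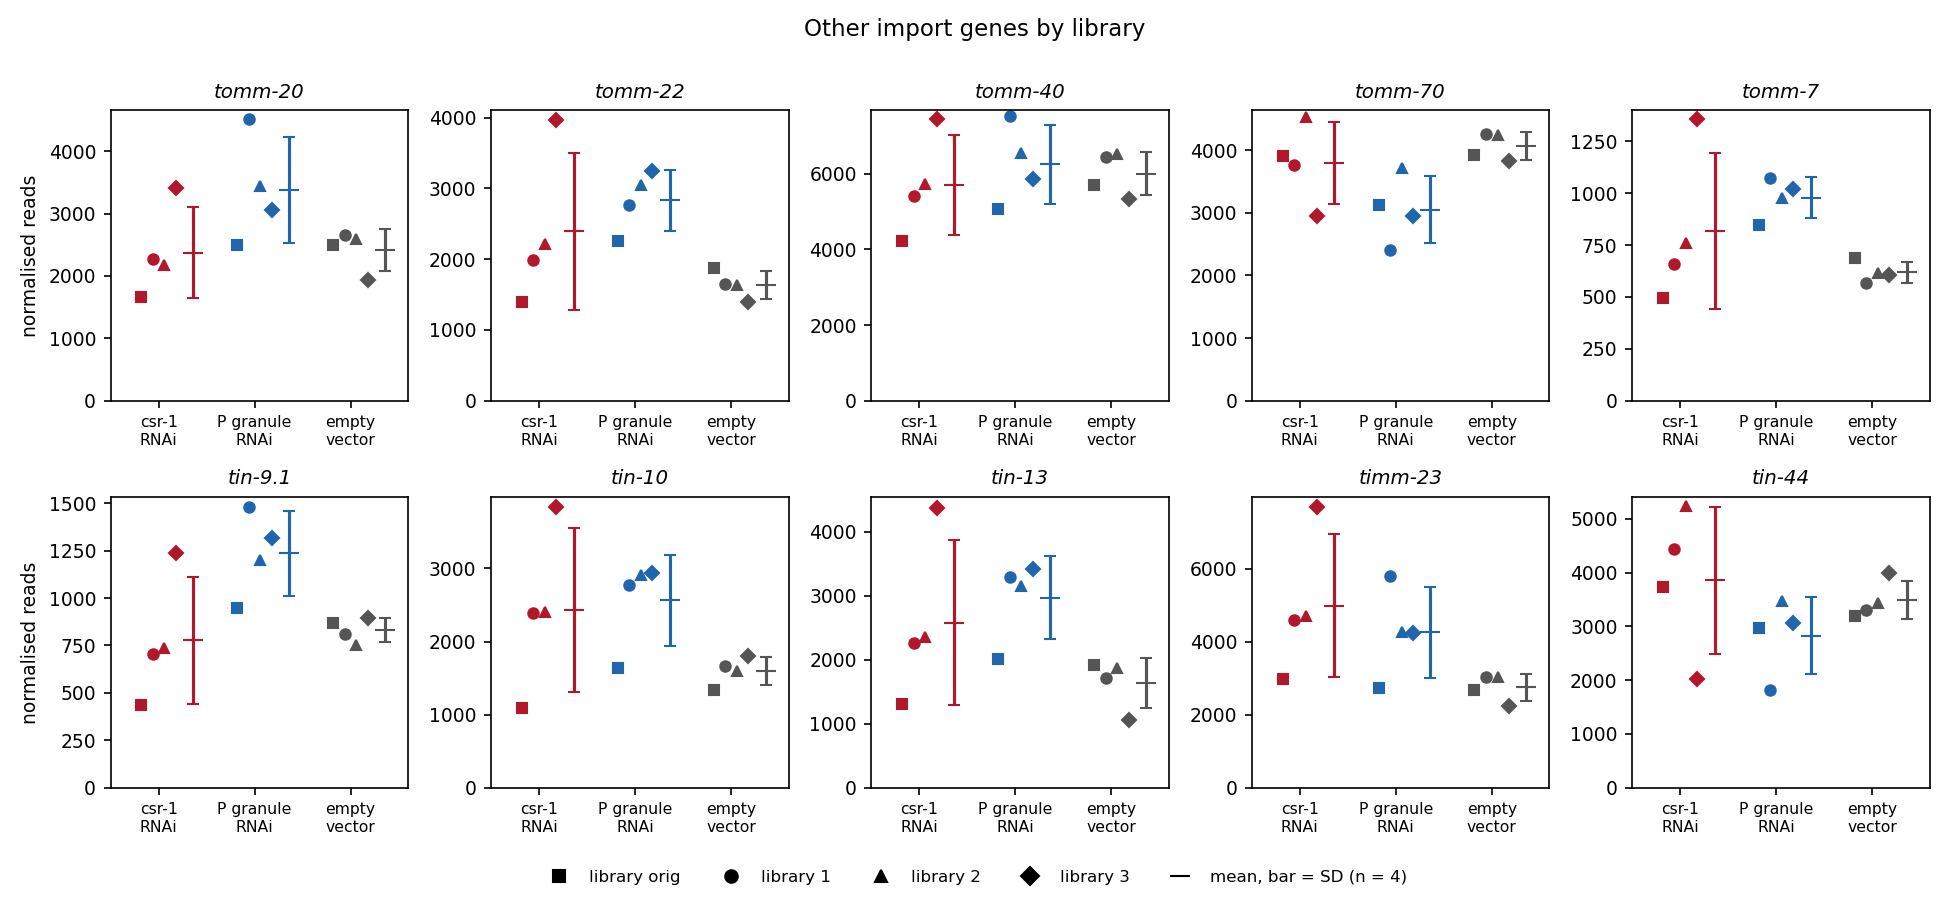
Normalised reads of the 10 import genes other than the timm-17B pair, in each library of csr-1 RNAi, P granule RNAi and the empty vector, with the mean and SD of 4. None was called; the P granule RNAi libraries lie above all controls for tomm-22, tomm-7, tin-9.1 and tin-13 and below them for tomm-70, and the csr-1 RNAi libraries spread widely.

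The comparison of csr-1 RNAi with P granule RNAi tests directly whether the effects differ, since both were measured against the same controls. It called 3 of 82 members, against 9.52% of all genes: timm-17B.2 lower, and mrps-14 and mrps-18C higher. Called higher were 5.25% of all genes and lower 4.27%. For mrps-18C the test gave a log2 difference of 0.52 (SE 0.11, limma adjusted p = 0.0147), held in 19 of 23 alternatives. For mrps-14 the difference was 0.53 (SE 0.14, limma adjusted p = 0.0355), held in 12 of 23. In mrps-14, mrps-22, mrps-18C, mrpl-11 and mrps-9 all csr-1 RNAi libraries lay above all P granule RNAi libraries, and in timm-17B.2 below; over all genes 7.40% lay above and 7.90% below. edgeR called 4 members and DESeq2 5, against 9.06% and 13.5% of all genes. The members' median was −0.12 and that of all genes −0.04, with 24 members above 0, against 46.4% of all genes. Without csr-1 library 3 the count was 14, or 17.1% of the members against 17.5% of all genes, and 10 of the 14 were lower under csr-1 RNAi. Without csr-1 library 1 it was 1, against 4.76% of all genes.

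Other nuclear genes tied to mitochondria by symbol or role were read from lists made for this description. Their counts for csr-1 RNAi are to be read against 6.98% of all genes called higher and 7.80% lower. For P granule RNAi, limma and edgeR called 0.0617% of all genes and DESeq2 0.734%. There 1560 of 11345 genes had an unadjusted limma p under 0.05, the median was 0.03 and 52.4% lay above 0. Of 58 genes of the respiratory chain and ATP synthase, 1 rose and 4 fell under csr-1 RNAi, 8.6% in all against 14.8% of all genes, at a median log2 fold change of −0.03. atp-1, an ATP synthase subunit, averaged 35981 ± 2974 normalised reads under csr-1 RNAi and 60926 ± 9844 in the controls (SD, n = 4), and its log2 difference was −0.75 (SE 0.17, limma adjusted p = 0.011). atp-2 averaged 42042 ± 1609 under csr-1 RNAi and 70966 ± 11738 in the controls, with −0.74 (SE 0.15, limma adjusted p = 0.00654). sdha-1, a subunit of succinate dehydrogenase, fell by 0.56 on the log2 scale (limma adjusted p = 0.0303), and nduf-7 of complex I rose by 0.58 (limma adjusted p = 0.0281). For P granule RNAi, limma, edgeR and DESeq2 each called 0 of the 58, with 16 at an unadjusted limma p under 0.05, a median of 0.28 and 52 above 0.

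Of 20 further import genes 2 fell under csr-1 RNAi, against 7.80% of all genes: hsp-6, the matrix chaperone of the import motor, by 0.60 on the log2 scale (limma adjusted p = 0.0336), and immt-2 of the inner membrane folds, by 0.52 (adjusted p = 0.0316). For P granule RNAi, the same 3 tools each called 0 of the 20, with 6 at an unadjusted limma p under 0.05, a median of 0.05 and 13 above 0. A list of 21 genes whose symbols end in ars-2 or that act in mitochondrial translation had 1 higher and 2 lower, 14.3% in all against 14.8% of all genes. A symbol ending in ars-2 does not by itself show that the enzyme works in mitochondria, and this was not checked here for aars-2 or the others. The gene aars-2, for an alanyl tRNA synthetase, averaged 25877 ± 2696 normalised reads under csr-1 RNAi and 15540 ± 2430 in the controls, and rose by 0.74 (limma adjusted p = 0.00647). The leucyl gene lars-2 averaged 1029 ± 521 under csr-1 RNAi and 2178 ± 294 in the controls (log2 difference −1.28, SE 0.39, limma adjusted p = 0.0478). Its csr-1 RNAi libraries orig, 1, 2 and 3 had 1568, 1020, 1201 and 327. The arginyl gene rars-2 averaged 1530 ± 219 under csr-1 RNAi and 2363 ± 380 in the controls (−0.63, SE 0.14, limma adjusted p = 0.0116). For P granule RNAi, the same 3 tools each called 0 of the 21, at a median of −0.16 with 7 above 0. Of 12 genes of the mitochondrial stress response, hsp-6 again among them, 1 rose and 2 fell under csr-1 RNAi, against 6.98% and 7.80% of all genes. The steepest fall was that of haf-1, a mitochondrial peptide exporter, averaging 35.6 ± 4.06 normalised reads under csr-1 RNAi and 119.8 ± 2.7 in the controls (log2 fold change −1.73, SE 0.20, limma adjusted p = 0.000277). The gene ubl-5, for a ubiquitin-like protein of this response, rose by 0.82 (limma adjusted p = 0.0381). For P granule RNAi, the same 3 tools each called 0 of the 12, at a median of −0.25 with 2 above 0.

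The 83 genes of the cytosolic ribosome had a median log2 fold change of −0.26 for csr-1 RNAi. Of these, 2 were called higher and 1 lower, 3.6% in all against 14.8% of all genes. The 70 mitochondrial ribosome genes had a median of 0.22, with 8 higher and 0 lower, 11.4% in all and also below 14.8%. For P granule RNAi the medians were 0.26 and 0.28, and limma, edgeR and DESeq2 each called 0 of either list. At an unadjusted limma p under 0.05 there were 9 and 14 genes, against 1560 of all 11345. Against the control mean, the cytosolic ribosome medians in csr-1 libraries orig, 1, 2 and 3 were −0.84, −0.28, −0.26 and 0.29. Those of the large mitochondrial subunit were −0.20, 0.18, 0.17 and 0.70, and those of the small subunit −0.14, 0.20, 0.23 and 0.77. The signs were thus opposite in libraries 1 and 2 and the same in libraries orig and 3, and the cytosolic ribosome was the lower in all 4. The difference between the lists was not tested.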

How the data were processed

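Poly(A) libraries from dissected germlines were sequenced as single reads of 100 bases, per the labels' protocols. Reads were handled with HTSeq 0.5.4p3, DESeq 1.1.2.1, TopHat2 2.0.8b, CASAVA and SAMtools 0.1.18, going by the submitters' processing notes. The genome build is not given in the sources used here. What the authors deposited is a normalised signal per gene and library, and the values are reads divided by a size factor: of 187342 values above 0, 100% were whole reads within 0.01. They also deposited, per the file headers, tables with a fold change (a ratio of group means) and p-values for each RNAi group against the control. The table's 12 columns were placed in groups by the group and replicate in their names, and 0 columns of values were left unused.

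From these values, genes with at least 10 normalised reads in at least 4 libraries (11345) were fitted with limma 3.58.1 in R 4.3.3, with trend and robust moderation, on log2(value + 1), which understates changes of low genes. All 12 libraries shared 1 estimate of the spread, with Benjamini-Hochberg adjustment over all genes and a threshold of 0.05. Alternatives were edgeR 4.0.16 and DESeq2 1.42.0 on the recovered reads, other scalings and filters, a pseudocount of 10, a replicate block, and libraries left out. Names, exon lengths and neighbours come from the WBcel235 annotation, matched for 98.98% of entries; no coordinates are given. Totals and tests leave out 5 entries with no gene: reads with no unique alignment (2.04% to 2.76%), ambiguous reads (0.783% to 0.917%) and reads in no gene (0.014% to 0.024%) are the largest. No libraries of a group agreed within sampling noise, so each counted once. The 4 libraries a group and a depth of 18.4 to 31.9 M reads in genes set the precision. The procedure was tested on data simulated for pairs of groups with each gene drawn independently. Shifts shared by many genes of a library, like those of the csr-1 RNAi libraries, were not part of that test.

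The members and the other lists were chosen with earlier results of these data known. All import members are named. Ribosomal members are named where called without overlap between groups, at the highest and lowest level of a subunit, or where they overlap another coding gene by at least 10%. Others are named for a symbol like that of a named member, or where the text says that they were chosen after their values were seen.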

Additional observations from a re-analysis of the deposited data

Results flagged for a closer look

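The normalised reads of 20 named members, and the members' median difference from the control mean, were screened in each group for a library far from the other three; 63 groups were examined, and chance marks about 1 in 20. mrpl-23 had 1669.8 normalised reads in control library 3, against 1086.3 to 1142.3 in the other control libraries. tin-10 had 1638.5 normalised reads in P granule library orig, against 2776.8 to 2941.8 in the other P granule RNAi libraries. The cause of these 2 values was not tested.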

How the results depend on the processing

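For csr-1 RNAi over the control 9 members were called. With 1 library left out the count ran from 4 (8.23% of all genes called) to 20 (18.9%). For P granule RNAi over the control, 1 was called, and the count ran from 0 to 3 (1.79% of all genes) with 1 library left out. It was 0 without the 3 orig libraries (0.0372% of all genes) and 9 without csr-1 libraries orig and 3 (3.63%). For csr-1 RNAi over P granule RNAi, 3 were called. With 1 library left out the count ran from 1 (4.76% of all genes) to 14 (17.5%). It was 5 by DESeq2 (13.5% of all genes), 1 on those 2 groups alone (4.69%) and 1 without the 3 orig libraries (3.62%). Deviations of same-numbered libraries from their group means had correlations across genes of −0.47 to 0.66. Of 8 libraries, 0 correlated best with their own number between csr-1 RNAi and the control, 4 between P granule RNAi and the control and 5 between the RNAi groups. These values do not settle whether the numbers mark pairs, and the main fit did not take them as pairs. With a replicate block csr-1 RNAi had 14 members called (18.4% of all genes), P granule RNAi 0 (0.0529%) and the contrast between them 4 (11.3%).

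Log2 fold changes near 0 changed sign, none of them called. Without the 3 orig libraries they were 0.017 for mrps-18C under P granule RNAi, 0.014 for tomm-40, 0.114 for tomm-20 and 0.077 for tin-9.1 under csr-1 RNAi, and 0.027 for timm-17B.1 between the RNAi groups. tomm-70 under csr-1 RNAi was 0.027 without csr-1 libraries orig and 3. timm-17B.1 between the RNAi groups was 0.030 by edgeR with TMM factors, 0.002 by edgeR with RLE factors and by DESeq2, and 0.015 with values scaled by TMM. With 1 library left out, the ranges that crossed 0 were −0.086 to 0.068 for mrps-18C and −0.046 to 0.144 for tomm-40 under P granule RNAi. Under csr-1 RNAi they were −0.235 to 0.037 for tomm-40, −0.251 to 0.094 for tomm-20, −0.206 to 0.001 for tomm-70, −0.445 to 0.054 for tin-9.1 and −0.106 to 0.351 for tin-44. Between the RNAi groups they were −0.201 to 0.125 for timm-17B.1, −0.037 to 0.419 for timm-23 and −0.440 to 0.167 for tin-10, and the members' median ran from −0.254 to 0.046. The cause of these changes was not tested. Of the other values of single genes under the alternatives, 1274 kept their direction and their side of the threshold, 57 lost a call and 24 gained one.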
